A study of Mus musculus with 4 samples.

Results

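The genes described here are 9 protein-coding genes of the mouse HoxA cluster, Hoxa2, Hoxa3, Hoxa4, Hoxa5, Hoxa7, Hoxa9, Hoxa10, Hoxa11 and Hoxa13, together with Hoxa11os, the non-coding transcript from the opposite strand of Hoxa11. They are 10 of 26252 genes or transcript clusters with a tag, and all 10 had enough counts to be among the 13718 tested. Hoxa6, with 1 and 2 counts in hindlimb and 3 and 0 in forelimb, had too few counts and was left out. The members were selected on their total count over all libraries, with earlier results of these data known, and their levels are given as a description. The study compared hindlimbs with forelimbs dissected from embryos of the outbred CD1 mouse strain at stage E14.5. Each limb type had 2 biological replicates, which made 4 libraries, and no genetic change or treatment is named in the labels. Pooling of embryos within a sample is not described there, and neither is any link between hindlimb and forelimb samples of the same number.

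Hox genes encode homeodomain transcription factors, and in each Hox cluster their order on the chromosome follows their order of use along the body and limb axes. In the limb, genes of paralog groups 9 and 10 act in the upper arm and thigh, group 11 in the forearm and shank, and group 13 in the hand and foot. Genes at the 3′ end of the cluster, such as Hoxa2 and Hoxa3, are better known from the hindbrain and neck. Transcription antisense to Hoxa11 is known from the digit-forming part of the mouse limb bud, where Hoxa11 itself is not expressed and where HOXA13 and HOXD13 act. At E14.5 the limb segments are already laid out in cartilage.

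Each library counted 17-base tags that follow a CATG, the site cut by the enzyme NlaIII. In principle a transcript gives a tag at its last CATG before the poly(A) tail, so a count does not grow with transcript length. The sums per gene also hold tags of other sites, and 66.8% of Hoxa11os counts lay on a tag that is not of the last site. Genes with more sites can thus collect more counts. CPM set side by side between genes are a rough comparison for this reason and through effects of base composition. CPM are edgeR's scaled counts, set per 1e6 counts of a library. The tags that carry the comparison of Hoxa11 with its antisense transcript, and the most counted tags of the other members, are printed below from 5′ to 3′ without the CATG. Capitals mark G and C, because the libraries of the limb types differed in base composition.
Hoxa11, most counted tag, last site, 3′ untranslated region: tGaaataatatGCaGat
Hoxa11, coding tag of exon 2: CtCaaCCtCaCCGaCCG
Hoxa11, coding tag of exon 1: tatttGCCaaGttGtaC
Hoxa11os, most counted tag: GtCCtGGtCCaCGaGtG
Hoxa11os, tag of the last site: CaattGaGGCGaaCCtt
Hoxa11os, tested tag of 13 G or C: ttGGCtGGGGGGCCtCC
Hoxa3, most counted tag: GGCCGGGGCCtGGGGaG
Hoxa4, second most counted tag: aGCtttaCtGaGtaGaC
Hoxa5, most counted tag: aGCCtGtttattGCCat
Hoxa9, most counted tag: aaaCtGCtCttGGGCta
Hoxa10, most counted tag, opposite strand: taaCttCaCaGtataaa
Hoxa10, sense tag of the last site: CataaaaGGGtCaaaCC
Hoxa13, most counted tag: GaaaGCtatCaGCCCtG

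The libraries held 5325279 and 5015295 counts in hindlimb replicates 1 and 2, and 4695786 and 1829647 in forelimb replicates 1 and 2. Forelimb replicate 2 was the shallowest, and a count was worth 0.621 CPM there against 0.224 to 0.256 CPM in the others. The hindlimb libraries were richer in G and C, with on average 7.86 and 8.56 such bases per counted tag in hindlimb against 6.90 and 6.84 in forelimb. The hindlimb genes Pitx1 and Tbx4 summed to 297 and 362 CPM in hindlimb against 12.0 and 4.35 CPM in forelimb, and the forelimb gene Tbx5 had 0.894 and 1.52 CPM in hindlimb against 18.4 and 14.9 CPM in forelimb, which fits the labels. Limb mesenchyme is the tissue in which limb HoxA genes are chiefly used. Its 6 markers summed to 1492 and 1393 CPM in hindlimb and 1313 and 1376 CPM in forelimb. Of the 6, 3 were called higher in hindlimb and none lower, where 9.58% of all genes were called higher and 7.08% lower. Marker calls took no account of base composition. Under both offsets for it described below, Prrx2 and Hand2 lost their calls. Prrx1 (log2 fold change −0.45) and Msx2 (−1.20) lay below 0 in hindlimb over forelimb, not called. The 9 skeletal muscle markers summed to 1043 and 1223 CPM in hindlimb against 2959 and 2500 CPM in forelimb, with 4 lower. The 5 macrophage markers summed to 26.2 and 17.2 CPM in hindlimb against 57.6 and 49.7 CPM in forelimb, with 2 lower. The 9 markers of neural tube and neurons summed to 85.6 and 59.1 CPM in hindlimb and 103 and 121 CPM in forelimb. The 5 markers of trunk somite and axial skeleton summed to 31.7 and 21.3 CPM in hindlimb and 17.2 and 39.8 CPM in forelimb, with Uncx at 0. The part of these other cells in the HoxA values was not tested, and in whole limbs fewer cells of a type and less RNA per cell cannot be told apart.

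Counts were highest in the 5′ part of the cluster, from Hoxa9 to Hoxa11, and low at both ends, apart from Hoxa3 in hindlimb. In hindlimb, Hoxa10 was highest at 88.4 ± 12.8 CPM (SD, n = 2 for each value here), followed by Hoxa11os at 75.7 ± 27.7, Hoxa9 at 50.5 ± 0.287, Hoxa11 at 27.4 ± 7.98 and Hoxa3 at 21.05 ± 11.1 CPM. Below these stood Hoxa7 at 8.76 ± 1.95, Hoxa5 at 7.57 ± 3.53, Hoxa13 at 4.78 ± 2.10, Hoxa2 at 3.997 ± 4.39 and Hoxa4 at 1.32 ± 0.285 CPM. Among neighbours in this order the replicates of Hoxa10 and Hoxa11os overlapped, as did those of Hoxa11 and Hoxa3, and of every neighbouring pair from Hoxa7 down. In forelimb the order was Hoxa10 at 81.4 ± 18.4, Hoxa11 at 76.4 ± 33.4, Hoxa9 at 37.3 ± 19.3, Hoxa11os at 11.6 ± 2.39 and Hoxa5 at 10.1 ± 5.57 CPM. Hoxa4 at 6.14 ± 2.54, Hoxa7 at 5.71 ± 2.80, Hoxa2 at 4.59 ± 4.73, Hoxa3 at 3.78 ± 0.0801 and Hoxa13 at 0.384 ± 0.543 CPM followed. Here only the steps from Hoxa11 to Hoxa9, from Hoxa9 to Hoxa11os and from Hoxa3 to Hoxa13 were free of overlap between replicates. These ranks rest on the tags that the deposited table gives to each gene. Of the Hoxa10 counts, 51.5% lay on a tag that matches only the opposite strand. On sense matches alone Hoxa10 had 222 and 148 counts in hindlimb, below Hoxa9 at 243 and 200. In forelimb it then had 121 and 74, below Hoxa11 at 206 and 159. With all its sense tags Hoxa13 had 73 and 43 counts in hindlimb and 22 and 7 in forelimb, where Hoxa3 had 15 and 6.

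**Figure D1:**
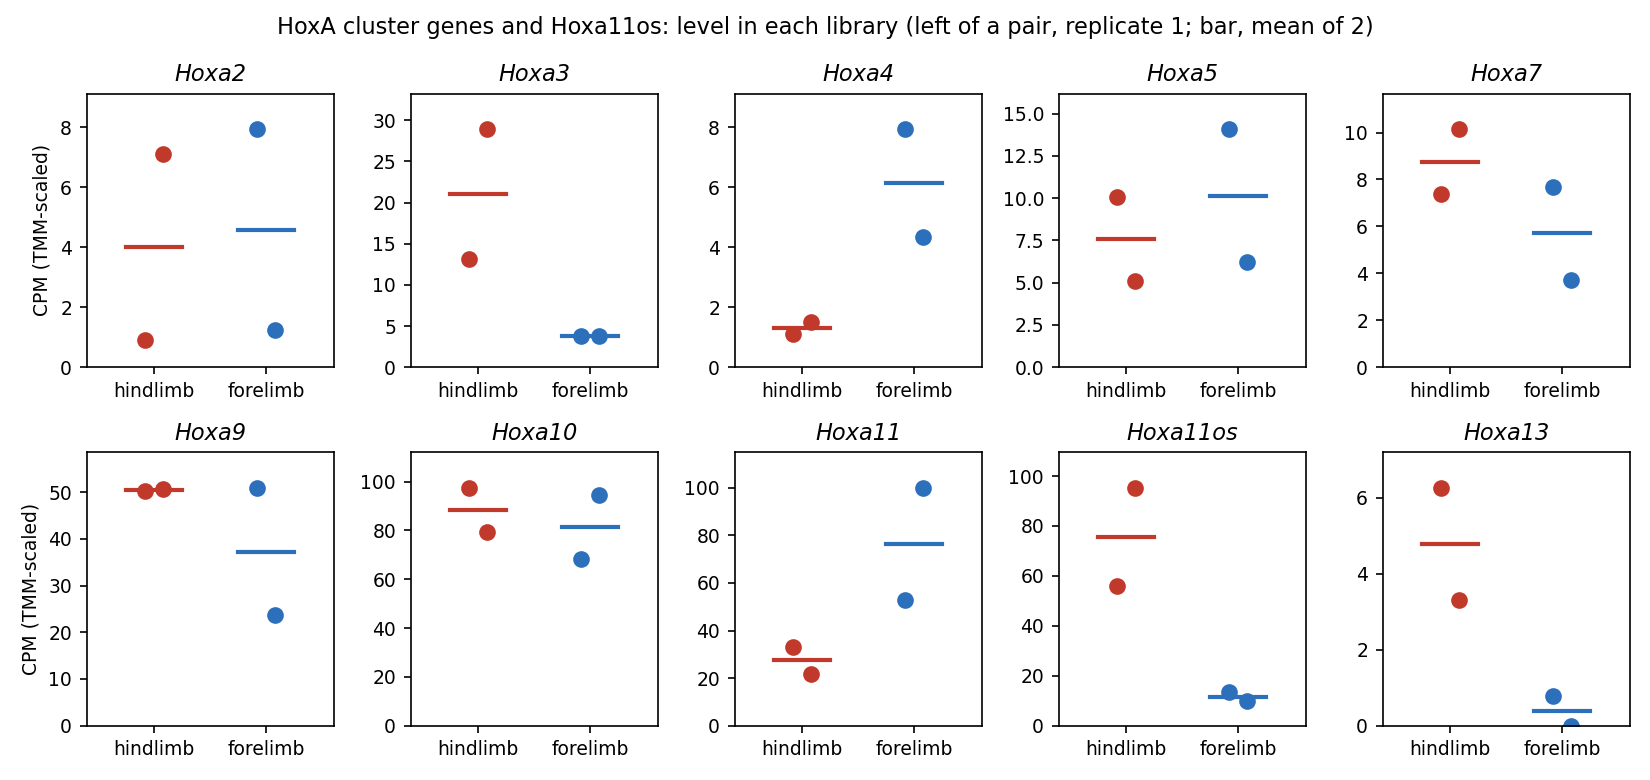
Level of each gene in CPM (vertical axis, from 0, own scale for each gene) in the 2 hindlimb and the 2 forelimb libraries, in cluster order; points are libraries and bars their mean. Hoxa3, Hoxa11os and Hoxa13 lie higher in both hindlimb libraries, Hoxa4 and Hoxa11 lower, and the other 5 genes overlap.

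The comparison asks which HoxA genes differ between limbs of different identity. Hoxa11os, the antisense transcript, and Hoxa3, an anterior cluster gene, were higher in hindlimb, and Hoxa11, the forearm and shank gene, was lower. Under the tag-sequence offset described next all 3 calls were lost, with Hoxa11os at 1.25, Hoxa3 at 0.72 and Hoxa11 turned to 0.44. The other 7 genes did not pass the test. Calls used edgeR's quasi-likelihood test at a Benjamini-Hochberg adjusted p of 0.05 over all 13718 genes, of which 16.7% were called, 9.58% higher and 7.08% lower in hindlimb. The limb types did not overlap in 5 of the 10 genes, against 62.8% of all genes tested, so non-overlap is no more frequent here than in the table as a whole. The median log2 fold change, hindlimb over forelimb, of the 10 genes was 0.27, against −0.029 over all genes, with 6 of 10 above 0.

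Base composition moved with these differences. Across 37805 tested tags, the median log2 fold change was −1.07 for tags with 4 G or C, −0.12 with 8, 1.58 with 11 and 3.91 with 15. Pearson's r between the number of G or C and the log2 fold change was 0.63 over the 18 tested tags of the HoxA genes and 0.57 over all tags, both as a description, since tags share libraries. Of the 18, all 6 with 9 or more G or C lay above 0 and 7 of the 12 with 8 or fewer lay below 0. The counted tags of Hoxa3 held 13.0 G or C on average and those of Hoxa11os 10.3, against 4.61 for Hoxa11 and 5.61 for Hoxa10. The fit was therefore repeated with 2 offsets. One, the GC lowess offset, is a smooth curve through the libraries' deviations by the base composition of each gene. The other, the tag-sequence offset, models base and position and is fitted to contrasts among tags within genes, so that a shift of a whole gene cannot enter it.

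**Figure D2:**
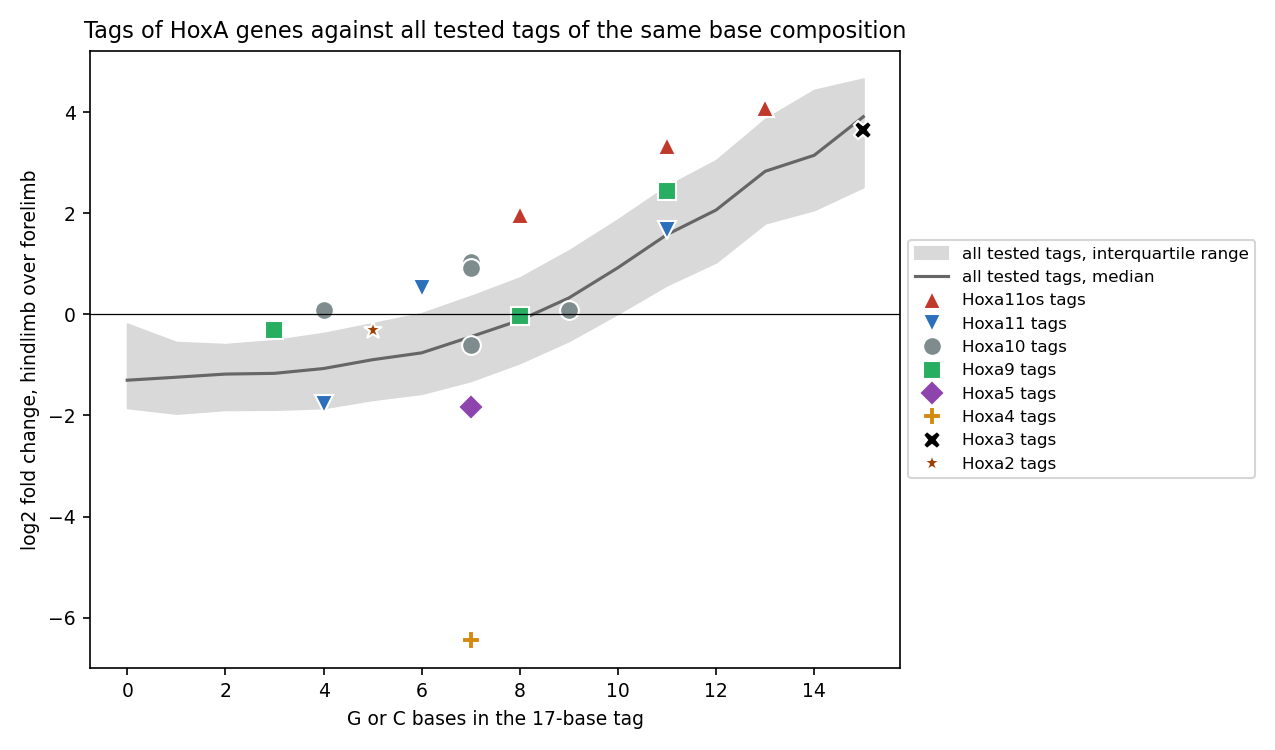
Log2 fold change, hindlimb over forelimb, of the 18 tested HoxA tags (symbols) against the number of G or C bases in the tag, over the median (line) and interquartile range (band) of all tested tags with the same number. The 3 tested Hoxa11os tags lie above the band at 8, 11 and 13 G or C. That at 13 passed the low-count filter through hindlimb alone. Of the Hoxa11 tags, those at 4 and 11 lie within the band and that at 6 above.

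With the tag-sequence offset, 0.211% of all genes were called and none of the 10 HoxA genes was, 4 of them having an unadjusted p under 0.05, as had 10.5% of all genes. With the GC lowess offset 6.39% of all genes were called, and Hoxa11os was the 1 HoxA gene among them, where 2.95% of all genes were called higher in hindlimb. Under the tag-sequence offset 8 of the 10 genes lay above 0, with a median of 0.73 against −0.017 over all genes. Of the 18 tags, 12 lay above the median of all tags with the same number of G or C, 8 above the upper quartile and 2 below the lower. Some of them, such as the Hoxa11os tag of 13 G or C, passed the low-count filter through 1 limb type alone, which favours a large difference. At tag level 2 of 18 were called, against 6.36% of all tags, and none with the tag-sequence offset, against 0.0317% of all tags, with 4 of the 18 at an unadjusted p under 0.05, as had 7.49% of all tags.

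**Figure D3:**
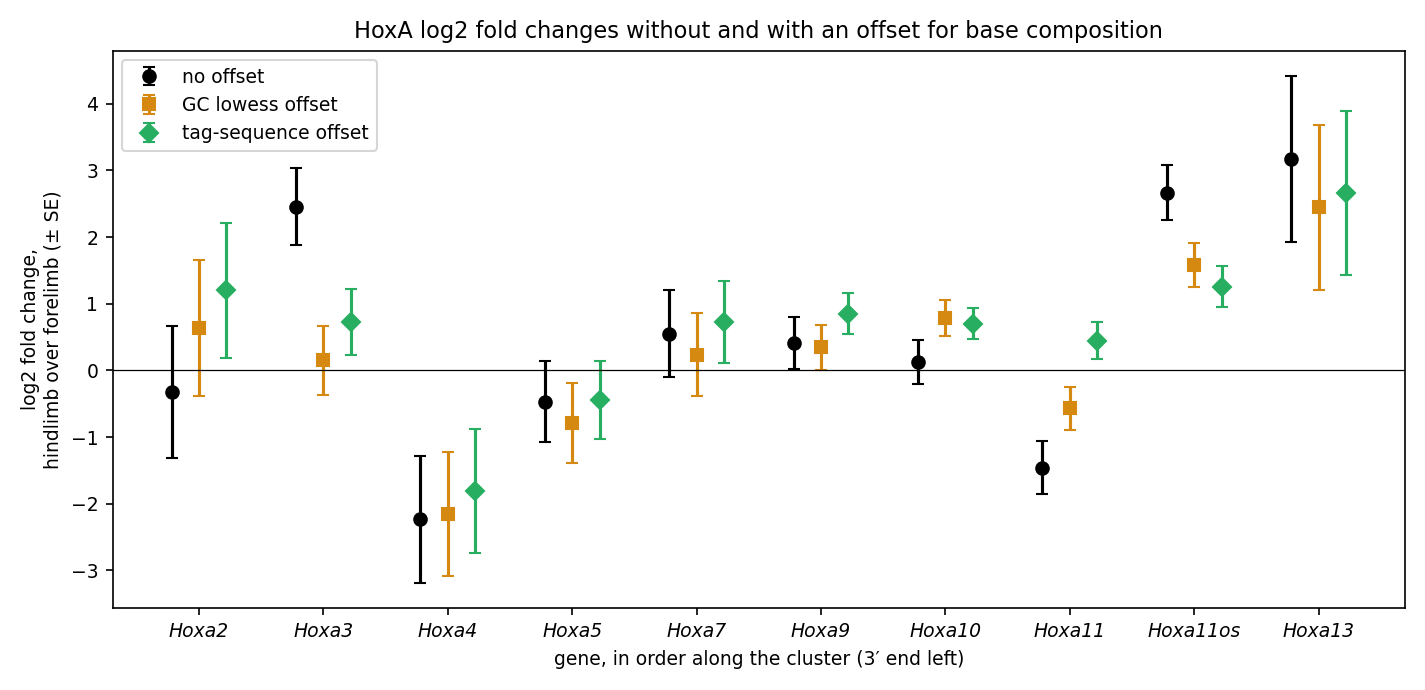
Log2 fold change, hindlimb over forelimb, with its standard error (bars) for each gene in cluster order, without an offset, with the GC lowess offset and with the tag-sequence offset. Hoxa3 falls to 0.15 and 0.72 with the offsets, Hoxa11 crosses 0 with the tag-sequence offset and Hoxa11os stays above 1 throughout.

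Hoxa11os (ENSMUSG00000086427, chr6:52244393-52249799, plus strand, GRCm38) was higher in hindlimb. It had 251 and 376 counts in hindlimb replicates 1 and 2, against 52 and 16 in forelimb replicates 1 and 2, or 56.1 and 95.3 CPM against 13.3 and 9.94 CPM. Both hindlimb libraries stood above both forelimb libraries. Hindlimb over forelimb, the log2 difference came to 2.67 ± 0.41 (SE; edgeR, adjusted p = 0.000872), 1.58 ± 0.33 with the GC lowess offset (adjusted p = 0.0112) and 1.25 ± 0.31 under the tag-sequence offset (adjusted p = 0.118). The call held in 14 of 16 alternatives, all but the 2 that use the tag-sequence offset, with values from 1.25 to 3.34 and adjusted p from 4.9e-10 to 0.118. The lowest adjusted p came without hindlimb replicate 1. In each of the 4 fits that leave out a library, a limb type has 1 sample, which is assumed to vary like the other limb type. Only the GC lowess offset and the 2 fits with the tag-sequence offset adjust for base composition. The remaining alternatives cannot show whether the call depends on it.

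Hoxa11 (ENSMUSG00000038210, chr6:52242106-52245810, minus strand) was lower in hindlimb without an offset. It had 148 and 86 counts in hindlimb, against 206 and 161 in forelimb, or 33.1 and 21.8 CPM against 52.8 and 100 CPM. The groups did not overlap, and forelimb replicate 2 was the highest library. The log2 fold change came to −1.46 ± 0.40 (SE; adjusted p = 0.0186 in edgeR), but −0.57 ± 0.32 with the GC lowess offset (adjusted p = 0.309) and 0.44 ± 0.28 under the tag-sequence offset (adjusted p = 0.617), so that its direction turned. The call was lost as well when forelimb replicate 2 (−0.95) or hindlimb replicate 2 (−1.17) was left out, and adjusted p over the 16 alternatives ran from 0.00056 (without hindlimb replicate 1) to 0.617.

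At tag level the pair lies head to head, with the 5′ exon of Hoxa11 overlapped by the antisense transcript. The most counted Hoxa11 tag, tGaaataatatGCaGat (chr6:52243302-52243318), is that of the last site and held 87.0% of the gene's counts. It had 120 and 59 counts in hindlimb against 189 and 155 in forelimb, a log2 fold change of −1.78 ± 0.52 (SE, edgeR adjusted p = 0.0663), which turned to 0.59 under the tag-sequence offset. Tags with its 4 G or C had a median of −1.07 and a lower quartile of −1.85. The coding tag CtCaaCCtCaCCGaCCG (chr6:52243454-52243470), with 11 G or C, went the other way, with 20 and 11 counts in hindlimb against 4 and 2 in forelimb, a log2 fold change of 1.68 ± 1.08. The exon 1 tag tatttGCCaaGttGtaC (chr6:52245661-52245677) had 6 and 16 counts in hindlimb against 11 and 1 in forelimb (0.52 ± 1.18), and its groups overlapped. Without an offset the tags of Hoxa11 thus did not share a direction, whereas with the tag-sequence offset they stood at 0.59, 0.25 and 0.83, none called. The test of unequal tag usage, without an offset (diffSpliceDGE in edgeR), did not pass for it (adjusted p = 0.175), where 10.6% of 8694 genes did.

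The 3 tested Hoxa11os tags lay above the upper quartile of tags with their own number of G or C. That of 13 G or C passed the low-count filter through hindlimb alone, which favours a high value. Of the untested tags, that of 7 G or C had 8 and 5 counts in hindlimb and 7 and 1 in forelimb. A matched tag of 9 G or C had 3 and 6 in hindlimb and 0 and 4 in forelimb. An unmatched tag of 9 G or C had 8 and 23 in hindlimb against 5 and 1 in forelimb. GtCCtGGtCCaCGaGtG (chr6:52246133-52246149), with 66.8% of the transcript's counts, had 178 and 254 counts in hindlimb against 29 and 3 in forelimb. Its fold change came to 3.34 ± 0.64 on the log2 scale (SE; adjusted p = 0.0251 in edgeR), where the upper quartile for 11 G or C was 2.53, and 1.54 with the tag-sequence offset (adjusted p = 0.615). The last-site tag CaattGaGGCGaaCCtt (chr6:52246756-52246772), with 8 G or C, had 38 and 70 counts in hindlimb against 10 and 7 in forelimb. That is 1.97 ± 0.70 (adjusted p = 0.105), where the upper quartile for 8 G or C was 0.72, and 1.21 with the tag-sequence offset. The tested tag of 13 G or C, ttGGCtGGGGGGCCtCC (chr6:52246058-52246074), had 15 and 14 counts in hindlimb against 1 and 0 in forelimb, a ratio of 19.0 with an exact 95% counting interval from 3.15 to 776, and a log2 fold change of 1.26 ± 1.69 with the tag-sequence offset (edgeR adjusted p = 0.884). The last-site tag and this one each match a second short annotated transcript that lies within Hoxa11os, and reads of these cannot be told apart.

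**Figure D4:**
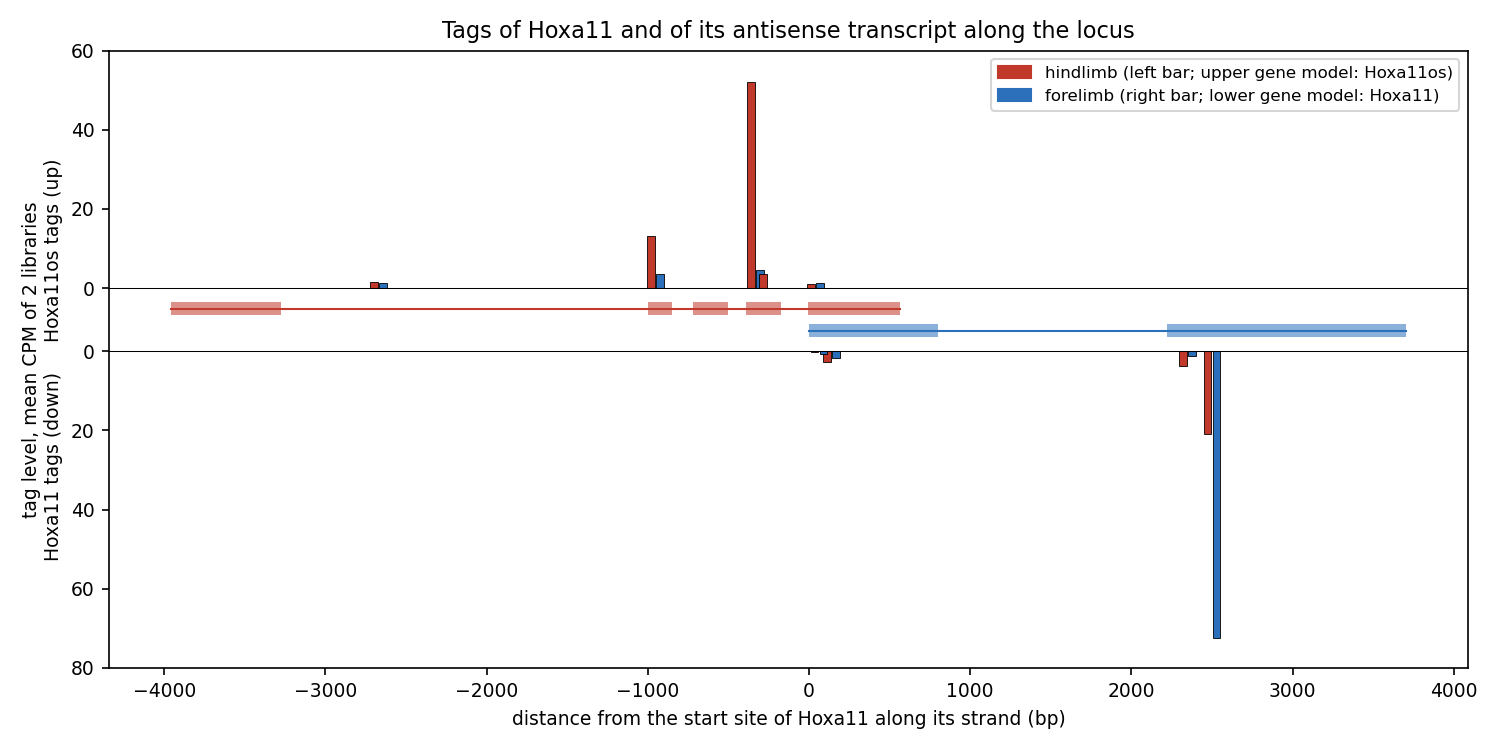
Mean CPM of 2 libraries for each matched tag of Hoxa11os (bars upward) and Hoxa11 (bars downward), against distance in base pairs from the start of Hoxa11 along its strand, with the exons of 1 annotated transcript of each between; hindlimb bars stand left of forelimb bars. Most Hoxa11os counts come from a tag just upstream of the Hoxa11 start and most Hoxa11 counts from its 3′ untranslated region.

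A ratio within a library does not depend on its depth. Hoxa11os made up 62.9% (Wilson 95% interval 58.1 to 67.5) and 81.4% (77.6 to 84.7) of the counts of the pair in hindlimb replicates 1 and 2. In forelimb replicates 1 and 2 it made up 20.2% (15.7 to 25.5) and 9.04% (5.64 to 14.2). The antisense transcript was thus the larger part in both hindlimb libraries and the smaller in both forelimb libraries. The mean share differed by 57.5 percentage points, with an exact two-sided permutation p of 0.333, the smallest that 2 against 2 libraries can give. With counts divided by the tag-sequence offset the shares were 47.95% and 44.7% in hindlimb against 39.6% and 25.5% in forelimb, 13.8 points apart. Between the most counted tags with 11 G or C of each transcript, the antisense share was 89.9% (84.9 to 93.4) and 95.8% (92.7 to 97.7) in hindlimb. In forelimb it was 87.9% (72.7 to 95.2) of 33 counts and 3 of 5 counts (23.1 to 88.2), so the difference shrank to 18.9 points and the intervals of hindlimb and forelimb replicate 1 overlapped. Between the last-site tag of Hoxa11 and that of all but 1 of the annotated Hoxa11os transcripts with a site the shares were 24.1% and 54.3% in hindlimb against 5.03% and 4.32% in forelimb. The last site of the remaining transcript lies further along, and its tag had 8 and 5 counts in hindlimb and 7 and 1 in forelimb. The hindlimb share lay above the forelimb share in every version, but which transcript was the more counted depended on the tags used.

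**Figure D5:**
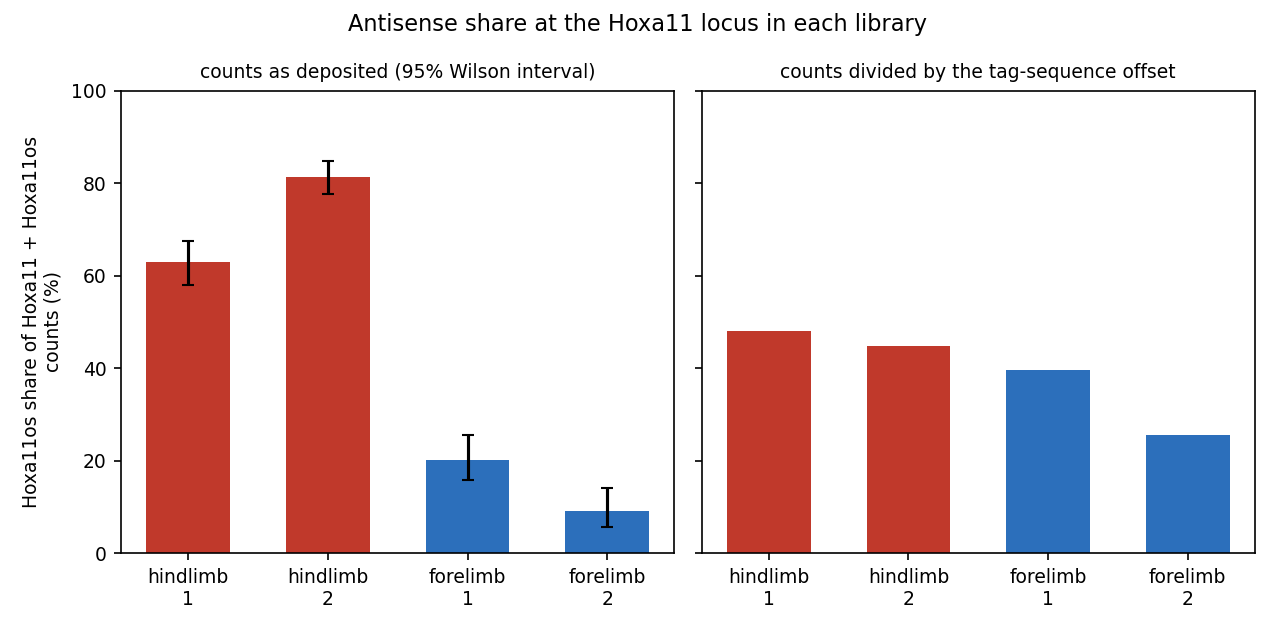
Share of Hoxa11os in the counts of Hoxa11 and Hoxa11os together (percent, from 0) in each library, as deposited with 95% Wilson intervals (left) and after division by the tag-sequence offset (right). The shares of 62.9% and 81.4% in hindlimb against 20.2% and 9.04% in forelimb come closer with the offset, to 47.95% and 44.7% against 39.6% and 25.5%.

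At the 3′ end, Hoxa3 was higher in hindlimb without an offset and Hoxa2, Hoxa4 and Hoxa5 did not pass. Hoxa3 (ENSMUSG00000079560, chr6:52169062-52213336, minus strand), needed for structures of the neck and pharynx, had 59 and 114 counts in hindlimb against 15 and 6 in forelimb. In CPM that is 13.2 and 28.9 in hindlimb against 3.84 and 3.73 in forelimb, with no overlap. Its fold change came to 2.46 ± 0.58 on the log2 scale (SE; adjusted p = 0.00886 in edgeR), but 0.15 ± 0.52 with the GC lowess offset (adjusted p = 0.897) and 0.72 ± 0.50 under the tag-sequence offset (adjusted p = 0.658). Leaving out hindlimb replicate 2 ended the call as well (1.80). Its most counted tag, GGCCGGGGCCtGGGGaG (chr6:52170024-52170040), has 15 G or C and had 35 and 59 counts in hindlimb against 4 and 1 in forelimb, a log2 fold change of 3.64 ± 0.83 (SE, edgeR adjusted p = 0.038). The median of tags with 15 G or C was 3.91, so this tag lay within the spread of its class.

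Hoxa4 (ENSMUSG00000000942, chr6:52189671-52191753, minus strand), a gene of the neck and thorax, had 5 and 6 counts in hindlimb against 31 and 7 in forelimb. Both hindlimb libraries, at 1.12 and 1.52 CPM, lay below both forelimb libraries, at 7.94 and 4.35 CPM. The log2 fold change came to −2.23 ± 0.95 (SE; adjusted p = 0.113 in edgeR) and stayed negative with the GC lowess (−2.15) and tag-sequence (−1.80) offsets. Of its tags, aGCtttaCtGaGtaGaC (chr6:52189926-52189942) had no count in hindlimb and 14 and 4 in forelimb. That is 9.16-fold lower if hindlimb is set at a limit of 3 counts over the group, with counting error of the forelimb counts left out. The tag passed the low-count filter through forelimb alone. This tag and the most counted Hoxa5 tag were the 2 below the lower quartile of their G or C class. Hoxa4 was the member with values below 0 in every alternative run, from −2.57 to −1.70, though none passed.

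Hoxa5 (ENSMUSG00000038253, chr6:52201754-52204587, minus strand), which acts in lung and the rib-bearing region, had 45 and 20 counts in hindlimb and 55 and 10 in forelimb. Its groups overlapped, with a log2 fold change of −0.47 ± 0.61 (SE, edgeR adjusted p = 0.645). Its tag aGCCtGtttattGCCat (chr6:52202420-52202436) had 19 and 1 counts in hindlimb against 45 and 7 in forelimb, with 7 G or C. Its sense coding tag with 11 G or C had 9 and 8 counts in hindlimb against 0 and 1 in forelimb. That with 12 G or C had 8 and 8 in hindlimb and none in forelimb, 3.49-fold higher if forelimb is set at 3 counts. Neither was tested, and tested tags with 11 and 12 G or C had median log2 fold changes of 1.58 and 2.06. Hoxa2 (ENSMUSG00000014704, chr6:52162417-52164831, minus strand), a hindbrain and second arch gene, had 4 and 28 counts in hindlimb and 31 and 2 in forelimb, all on 1 tag. Replicates of each limb type differed more than the limb types did, and no direction can be given (−0.32 ± 0.99, edgeR adjusted p = 0.854).

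Hoxa7, Hoxa9 and Hoxa10, from the middle of the cluster to its limb genes, did not pass. Hoxa7 (ENSMUSG00000038236, chr6:52214491-52221854, minus strand), a gene of the trunk skeleton, had 33 and 40 counts in hindlimb and 30 and 6 in forelimb (log2 fold change 0.55 ± 0.65, edgeR adjusted p = 0.602). A 13 G or C tag had 9 and 23 counts in hindlimb and none in forelimb, 6.99-fold higher if forelimb is set at 3 counts. This tag was not tested, and the median log2 fold change of tested tags with 13 G or C was 2.83. The most counted Hoxa7 tag, with 7 G or C, had 9 and 9 in hindlimb and 20 and 2 in forelimb. Its tag with 5 G or C had 2 and 8 in hindlimb and 7 and 0 in forelimb. Both of these overlapped in CPM between limb types.

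Hoxa9 (ENSMUSG00000038227, chr6:52223100-52231089, minus strand), which with its HoxD paralog acts in the early limb bud and upper segment, had 225 and 200 counts in hindlimb and 199 and 38 in forelimb. Hindlimb replicates were at 50.3 and 50.7 CPM, and forelimb replicates at 51.0 and 23.6 CPM on either side. The log2 fold change came to 0.40 ± 0.39 (SE; adjusted p = 0.509 in edgeR) and 0.85 ± 0.31 under the tag-sequence offset (adjusted p = 0.32). The most counted tag aaaCtGCtCttGGGCta (chr6:52223245-52223261) had 92 and 117 counts in hindlimb and 135 and 26 in forelimb (−0.040 ± 0.52). The second, with 11 G or C, had 72 and 50 in hindlimb against 9 and 5 in forelimb, a log2 fold change of 2.44 ± 0.65 (SE, edgeR adjusted p = 0.0542), just under the upper quartile of 2.53 for such tags. The test of tag usage in Hoxa9 had an adjusted p of 0.175 (diffSpliceDGE in edgeR).

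Hoxa10 (ENSMUSG00000000938, chr6:52231197-52240854, minus strand), which patterns the thigh and upper arm, had 436 and 313 counts in hindlimb and 267 and 152 in forelimb. The groups overlapped at 97.5 and 79.4 CPM in hindlimb and 68.4 and 94.4 CPM in forelimb, with a log2 fold change of 0.13 ± 0.33 (SE, edgeR adjusted p = 0.823). With the GC lowess offset it was 0.78 ± 0.26 (adjusted p = 0.0846), and under the tag-sequence offset 0.70 ± 0.23 (adjusted p = 0.289). Of its 1168 counts, 602, or 51.5%, lay on the tag taaCttCaCaGtataaa (chr6:52231451-52231467, plus strand), which matches only the strand opposite to the gene. It had 214 and 165 counts in hindlimb and 146 and 77 in forelimb, close to level in CPM at 47.8 and 41.8 in hindlimb and 37.4 and 47.8 in forelimb. The sense tag CataaaaGGGtCaaaCC (chr6:52231430-52231446) flanks the same CATG, the last site of the gene, and had 89 and 76 counts in hindlimb against 44 and 12 in forelimb. In CPM the sense tag did not overlap between limb types, at 19.9 and 19.3 in hindlimb against 11.3 and 7.46 in forelimb (log2 fold change 1.03 ± 0.52, edgeR adjusted p = 0.223). When tags were reassigned to genes whose sense strand they match, Hoxa10 kept 222 and 148 counts in hindlimb and 121 and 74 in forelimb. Whether these tags also match other places in the genome was not examined.

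Hoxa13 (ENSMUSG00000038203, chr6:52257694-52260880, minus strand), the hand and foot gene at the 5′ end, had 28 and 13 counts in hindlimb against 3 and 0 in forelimb. Both hindlimb libraries, at 6.26 and 3.30 CPM, stood above both forelimb libraries, at 0.768 and 0 CPM, where a count of 0 allows up to 1.86 CPM in forelimb replicate 2. The ratio of the summed counts, scaled by library size, was 8.95 with an exact 95% counting interval from 2.86 to 45.2, and edgeR's adjusted p was 0.0852. Its 4 counted tags lie in coding sequence, the most counted being GaaaGCtatCaGCCCtG (chr6:52259950-52259966) with 20 and 5 counts in hindlimb against 3 and 0 in forelimb. The deposited table gave no gene to further tags in its 3′ untranslated region. With all tags that match the sense strand of Hoxa13, counts were 73 and 43 in hindlimb against 22 and 7 in forelimb, the log2 fold change was 1.43 (edgeR adjusted p = 0.094), and it was 1.11 with the tag-sequence offset (adjusted p = 0.48).

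Around the members, Hottip, a non-coding RNA beyond Hoxa13, had 8 and 13 counts in hindlimb and 0 and 7 in forelimb (log2 fold change 0.48, edgeR adjusted p = 0.842). Hoxaas2, an antisense RNA near Hoxa3, had no count in hindlimb and 6 and 0 in forelimb, and Skap2, the gene beyond the 3′ end of the cluster, had 12 and 13 in hindlimb and 22 and 0 in forelimb. Evx1 and Hotairm1 had no counted tag, which at this depth allows up to 0.671 CPM in hindlimb replicate 1 and 1.86 CPM in forelimb replicate 2. The deposited table gives no tag to Hoxaas3, an antisense RNA that runs across the middle of the cluster, but a tag it gives to Hoxa7, with 11 and 0 counts in hindlimb and 0 and 2 in forelimb, matches the sense strand of Hoxaas3.

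The other Hox clusters, the cofactors of Hox proteins and genes linked to HOX11 and HOX13 function were read beside HoxA. Of 16 tested HoxB, HoxC and HoxD genes, 3 were higher in hindlimb (Hoxb9, Hoxc9 and Hoxc10) and 1 was lower (Hoxd11), where 9.58% of all genes were higher and 7.08% lower. With the tag-sequence offset Hoxc10 alone was called, where 0.211% of all genes were. The group 11 paralog Hoxd11, which acts with Hoxa11 in the forearm, had 45.2 and 46.7 CPM in hindlimb against 71.2 and 123 CPM in forelimb. Its fold change came to −1.07 ± 0.35 on the log2 scale (SE; adjusted p = 0.0458 in edgeR), −0.32 with the tag-sequence offset, and Hoxc11 was at 2.18 ± 0.83 (adjusted p = 0.0767). The group 13 paralogs Hoxd13 (0.75 ± 0.32, edgeR adjusted p = 0.114) and Hoxc13 (1.74 ± 0.68, adjusted p = 0.0825) did not pass. With the tag-sequence offset Hoxd13 stood at 0.33, Hoxc13 at 0.30 and Hoxc11 at 2.22. Over the 4 libraries, with each gene centred on its own mean log2 CPM, the nearest of these 16 genes to Hoxa11 were Hoxd11, Hoxd10 and Hoxb3, at Euclidean distances of 0.607, 0.804 and 1.18. Nearest to Hoxa13 were Hoxc11, Hoxb9 and Hoxc9, at 0.507, 0.685 and 1.01. These distances used CPM without an offset for base composition. Few counts lay behind those of Hoxa13, with 28 and 13 in hindlimb and 3 and 0 in forelimb, its last-site tag left out. Hoxc9 had 15 and 12 in hindlimb and none in forelimb.

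Of 8 tested genes of the TALE class, homeodomain proteins that bind DNA together with Hox proteins, 2 were higher in hindlimb and 1 was lower, where 16.7% of all genes were called in either direction. Pknox1 had a log2 fold change of 2.03 ± 0.44 (SE, edgeR adjusted p = 0.00532), Pbx2 of 1.09 ± 0.34 (adjusted p = 0.0383) and Meis1, a gene of the proximal limb, of −1.86 ± 0.49 (adjusted p = 0.0158). Of 24 tested genes of limb segments or linked to HOX11 and HOX13, 2 were higher, Prrx2 (2.04 ± 0.38, edgeR adjusted p = 0.00261) and Hand2 (1.79 ± 0.40, adjusted p = 0.00672), both factors of limb mesenchyme. Lower were Tbx3, a posterior limb factor (−1.95 ± 0.46, edgeR adjusted p = 0.0091), and Jag1, a Notch ligand (−1.23 ± 0.41, adjusted p = 0.0468). The 4 called of these 24 are a share at the level of all genes. None of the genes of these 2 lists passed with the tag-sequence offset in edgeR, where 0 of the 8 and 7 of the 24 had an unadjusted p under 0.05, against 10.5% of all genes. The called ones then stood at 0.30, 0.069, −0.78, 0.34, 0.89, −1.16 and −0.88 in the order given.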

How the data were processed

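Tags of NlaIII digital gene expression were counted in 4 libraries. The authors deposited a table of whole-number counts per tag, with a UniGene cluster and Ensembl gene for each. Bowtie and mm9 are named per the submitters' processing notes, without a version. Counts were summed per Ensembl gene, or cluster where no gene was given; tags with neither, left out, held 14.8% to 18.7% of a library. Hindlimb was compared with forelimb in edgeR 4.0.16 (R 4.3.3; quasi-likelihood test, TMM, filterByExpr, Benjamini-Hochberg), with DESeq2 1.42.0, other tag choices, 2 offsets and left-out libraries as alternatives. The edgeR fit and the tag-sequence offset were tested on simulated counts. The simulated tag counts were drawn with the fitted tag bias itself, so they cannot show that the offset suits these data. The tag-sequence offset used 27607 tags of 7669 genes with at least 40 counts. Tags were matched to GENCODE M21 transcripts (GRCm38), which give all positions. Wilson and exact intervals (95%) and limits from a count of 0 (3 counts) cover counting error only, as PCR reads carry no molecular identifiers. Fold values set against such a limit leave out counting error of the other group. All 10 members were named; of listed genes, those called and the paralogs of Hoxa11 and Hoxa13. Members, lists and tests were chosen with earlier results of these data known.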

Additional observations from a re-analysis of the deposited data

Results flagged for a closer look

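Some tags that match an annotated HoxA transcript have no gene in the deposited table and so enter none of the sums above. Those with at least 20 counts are given here because they carry signal in data the comparison did not use, and they match no other M21 transcript. The tag aatttCaGaaaGCCtaC (chr6:52231538-52231554, plus strand) matches the strand opposite to Hoxa10 and had 128 counts, 43 and 31 in hindlimb and 44 and 10 in forelimb. The tag CttCCataCtCtGCtCt (chr6:52231948-52231964, plus strand), also opposite to Hoxa10, had 49 counts, 22 and 15 in hindlimb and 9 and 3 in forelimb. With the assigned antisense tag, these are 3 tags read from the strand opposite to the 3′ untranslated region of Hoxa10.

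The tag GtGGattaaCCaaCaCt (chr6:52258202-52258218, minus strand), at the last site of Hoxa13, had 67 counts, 28 and 22 in hindlimb and 13 and 4 in forelimb, more than the 44 counts that the deposited table gives to Hoxa13 in all. The tag ttaaGtGCCtGCtCaGG (chr6:52258469-52258485, minus strand), also in the 3′ untranslated region of Hoxa13, had 21 counts, 5 and 8 in hindlimb and 5 and 3 in forelimb. The tag aGttaCaCCGGCGatta (chr6:52246037-52246053, minus strand) lies upstream of the Hoxa11 start on the strand of Hoxa11, opposite to an exon of Hoxa11os. It had 36 counts, 2 and 2 in hindlimb against 26 and 6 in forelimb, and its difference was not tested.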

How the results depend on the processing

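The count of 3 called HoxA genes became 1 with the GC lowess offset, 0 with the tag-sequence offset, 0 with reassigned tags and that offset, and 1 to 3 when a replicate was left out (1 without hindlimb replicate 2). The 4 called genes of the other clusters became 2 with DESeq2, 1 with the GC lowess offset, 1 with the tag-sequence offset, 1 with reassigned tags and that offset, and 1 to 7 when a replicate was left out. The 1 called tag of Hoxa11 and Hoxa11os became 2 with DESeq2, 2 without a low-count filter, 0 with the tag-sequence offset, and 1 to 3 when a replicate was left out. Called tag usage was 0 of 4 genes (0 at an unadjusted p under 0.05) and 0 to 1 when a replicate was left out. The share difference of 57.5 points became 13.8 with the tag-sequence offset, 34.5 with last-site tags, 18.9 with tags of 11 G or C, and 48.3 to 66.8 when a replicate was left out. Reversals were Hoxa2 at 1.64 (without forelimb replicate 1), 0.49 (without hindlimb replicate 1), 0.63 (GC lowess offset), 1.20 (tag-sequence offset) and 1.29 (reassigned, with offset). Hoxa5 was at 0.29 and Hoxa10 at −0.091 without forelimb replicate 1, Hoxa10 at −0.038 without hindlimb replicate 1, and Hoxa9 at −0.021 without forelimb replicate 2 and −0.045 on its most abundant tag. Hoxa11 was at 0.44 with the tag-sequence offset and 0.51 with reassigned tags as well, its last-site tag at 0.59 with the offset, and its exon 1 tag at −0.16 without forelimb replicate 2 and −0.37 without hindlimb replicate 2. With a replicate left out, the ranges were −2.40 to 1.64 for Hoxa2, −1.06 to 0.29 for Hoxa5, −0.021 to 1.10 for Hoxa9, −0.091 to 0.36 for Hoxa10 and −0.37 to 2.05 for the exon 1 tag of Hoxa11. With a library left out, the lone library of that limb type is assumed to vary like the other limb type. The cause of these changes was not tested. Of 208 values of genes and tags under the alternatives, 177 kept direction and side of the threshold. Replicate numbers were not shown to pair the samples (correlation of replicate differences −0.1055): with the replicate block 3 HoxA genes, 3 other Hox genes and 0 tags of Hoxa11 and Hoxa11os were called, and 2151 genes in all, against 3170 with the numbers crossed. Reassignment, last-site tags, tags of 11 G or C and crossing were chosen after seeing the data. Depth limits Hoxa2, Hoxa4 and Hoxa13 most, with at most 31 counts in any library.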
